A study of Mus musculus with 8 samples.

Results

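The genes described here are 9 tenocyte genes, Tnmd, Scx, Mkx, Fmod, Kera, Thbs4, Comp, Cilp2 and Cytl1, read in RNA-Seq libraries of sorted muscle stem cells (MuSCs). They are genes known from tendon that were chosen by comparing their counts between a vitamin A-free and a control diet in these same libraries, so their diet differences are given as a description and are no independent evidence of a direction. Where members are counted by the fit over all genes, the count has no weight as a test. They are 9 of the 36047 genes with a transcript in the deposited tables, and all 9 were among the 17997 genes with enough counts to be compared. Each gene's level is the sum of the estimated counts of its transcripts, given as CPM (counts scaled by library size) after TMM normalization, which corrects for differences in library composition.

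Tenocytes are the fibroblasts of tendon, which lay down parallel collagen fibrils and the proteoglycans and glycoproteins that space and link them. Scx, a basic helix-loop-helix transcription factor, marks tendon progenitors and tenocytes, and Mkx, a homeodomain transcription factor, is needed for tendon matrix to form in the normal amount. Downstream, tenocytes make the membrane glycoprotein tenomodulin (Tnmd), the small leucine-rich proteoglycans fibromodulin (Fmod) and keratocan (Kera), and the thrombospondins Thbs4 and Comp. Cilp2 is a secreted protein related to the cartilage intermediate layer protein, and Cytl1 is a small secreted protein known from blood progenitors and cartilage.

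The study asked what lack of vitamin A (VA) does to MuSCs in vivo. All mice were male Pax7CreERT2-Rosa26 nTnG (Pax7-nTnG) animals aged 5 to 6 months, in which tamoxifen, given to both diets, lets Cre driven by Pax7 switch nuclei of MuSCs and their progeny from tdTomato to GFP. For 8 weeks 3 mice ate a custom VA-free diet and 2 mice stayed on normal chow, so lack of VA and other differences between the feeds cannot be told apart. GFP-positive cells of gastrocnemius and quadriceps were sorted, and the RNA of a mouse was split into technical replicates A and B on the purification column. The paper selected replicates for library preparation by RNA quality and concentration, and VA-free 1A and 2B were not among them. The 8 libraries made were analysed. Libraries 1B and 2A of the VA-free diet stand for a mouse each, 3A and 3B share mouse 3, and control libraries come as the pairs 1A with 1B and 2A with 2B. Libraries of 1 mouse share an animal and were added for every comparison, so n counts mice. A VA-free library held 45021285 to 88650428 estimated counts and a control library 44831232 to 53029345. Control 2A and 2B, which come from 1 mouse, stand further apart in each of the 9 genes than the other technical pairs, and values without each of them are given where they matter.

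The promoters of 4 members whose level on the VA-free diet stayed under 5% of the control mean in every mouse are shown first, because these genes are among the members with the deepest falls. Of the 9 members, 6 had a promoter in the RefSeq table of GRCm38.p6 (Tnmd, Fmod, Kera, Thbs4, Cilp2 and Cytl1). The sequences below are the bases before the transcription start, 5′ to 3′ on the strand of the gene, with CANNTG, the E-box letters that basic helix-loop-helix factors such as Scx bind, in capitals. They lie at chrX:133850758-133850979 (plus strand) for Tnmd, chr1:134037004-134037253 (plus) for Fmod, chr13:92794819-92795068 (minus) for Thbs4 and chr5:37735269-37735518 (plus) for Cytl1.
Tnmd: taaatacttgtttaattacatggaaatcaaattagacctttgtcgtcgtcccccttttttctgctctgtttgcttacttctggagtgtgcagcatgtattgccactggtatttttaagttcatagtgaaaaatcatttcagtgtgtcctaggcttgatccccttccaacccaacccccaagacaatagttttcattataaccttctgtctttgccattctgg
Fmod: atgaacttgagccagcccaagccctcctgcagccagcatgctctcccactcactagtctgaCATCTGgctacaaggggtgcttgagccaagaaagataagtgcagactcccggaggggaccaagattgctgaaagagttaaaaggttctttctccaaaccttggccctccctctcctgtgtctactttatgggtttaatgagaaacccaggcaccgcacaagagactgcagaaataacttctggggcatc
Thbs4: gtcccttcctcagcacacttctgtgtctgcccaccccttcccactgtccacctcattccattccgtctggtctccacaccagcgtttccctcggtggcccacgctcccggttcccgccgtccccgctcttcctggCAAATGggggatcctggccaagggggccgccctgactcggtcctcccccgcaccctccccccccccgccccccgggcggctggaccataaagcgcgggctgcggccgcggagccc
Cytl1: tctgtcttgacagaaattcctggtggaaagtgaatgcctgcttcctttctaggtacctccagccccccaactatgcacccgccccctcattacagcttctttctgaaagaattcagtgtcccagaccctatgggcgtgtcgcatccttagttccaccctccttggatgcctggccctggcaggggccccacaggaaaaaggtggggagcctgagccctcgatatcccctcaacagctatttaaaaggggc

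In the 250 bases before the RefSeq start, read on both strands, CANNTG was found once in Fmod, Thbs4 and Cilp2 and was not among the letters of Tnmd, Kera and Cytl1. The Kera and Cilp2 windows lie inside these genes as annotated for the counts, which is why Kera is not printed above. The same letters occur in 66.2% of the 32851 mouse promoters of this length in the table. Neither TATAAA, the TATA-box letters, nor AGGTCA, the hexamer that retinoic acid receptors bind in pairs, was found in any of the 6 windows, against 12.4% and 14.0% of all promoters. GC content ranged from 38.4% in the Tnmd window to 70.8% in the Thbs4 window, so the windows differ in base composition.

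On the VA-free diet 8 of the 9 members were lower in every mouse than in either control mouse, and the fall differed widely between them. A level that lay lower in all 3 VA-free mice than in both control mice was seen for 32.3% of all genes. In the fit over all genes 8 of the 9 passed the adjusted threshold of 0.05 as lower, beside 22.5% of the 17997 genes in the same direction, and nothing is read from this count because the contrast chose the members. The median log2 fold change of the members was -4.84, beside 0.003 over all genes tested. These are bulk libraries, in which fewer cells of a type and less RNA per cell cannot be told apart. Added over the members, the level was 50.0 to 77.2 CPM in the VA-free libraries and 919.5 to 1471 CPM in the control libraries.

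**Figure D1:**
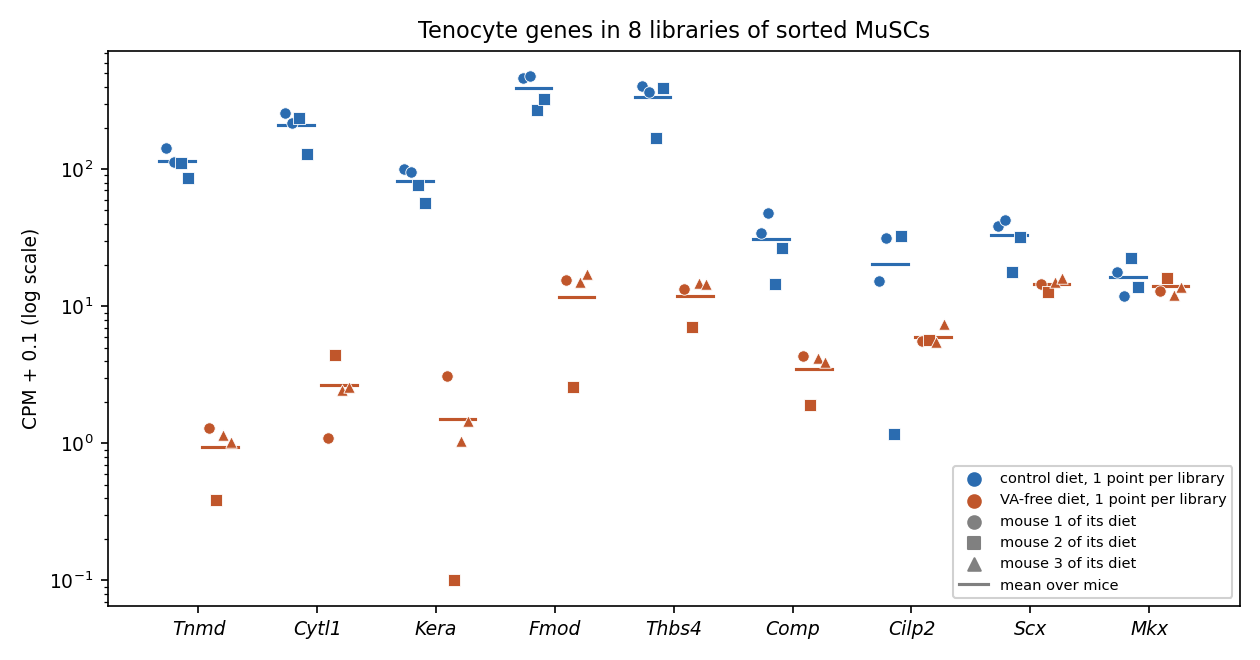
CPM + 0.1 of the 9 tenocyte genes on a log axis, ordered by fold change, with 1 point per library (blue control, orange VA-free), the symbol giving the mouse within its diet and the bar the mean over mice. The diets stand far apart from Tnmd to Comp, control 2A falls below the VA-free libraries for Cilp2 at 1.06 CPM, and the diets overlap for Mkx.

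Tnmd, the most tendon-restricted of the surface proteins here, had the steepest fall. Control 1A and 1B held 142 and 114 CPM, control 2A and 2B 111 and 86.0 CPM. VA-free 1B held 1.21 CPM, 2A held 0.286, 3A held 1.06 and 3B held 0.926. Every VA-free library lay under every control library, and VA-free 2A was the lowest with 16 counts, against 4636 to 7168 counts in a control library. Per mouse the level went from 114 ± 27.4 CPM (SD, n = 2) to 0.840 ± 0.493 (SD, n = 3), and the log2 fold change was -7.02 (standard error 0.47), rank 67 from the lowest of 17997 genes.

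Cytl1 fell nearly as far but not in step with Tnmd. Control 1A held 256 CPM, 1B 219, 2A 235 and 2B 130. VA-free 1B held 0.992 CPM, 2A 4.28, 3A 2.36 and 3B 2.48. The groups did not overlap, yet the mouse with the least Tnmd, VA-free 2, had the most Cytl1 of its diet. The log2 fold change was -6.38 (standard error 0.54), from 210 ± 52.2 CPM (SD, n = 2) to 2.58 ± 1.64 (SD, n = 3). In VA-free 1B a retained-intron transcript, Cytl1-202, took 23.7% of the 93 counts of the gene, and in the other 7 libraries it took 0%.

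The 2 small leucine-rich proteoglycans of the set, which bind collagen and set fibril diameter, fell together. Fmod was at 463 and 479 CPM in control 1A and 1B and at 272 and 326 CPM in control 2A and 2B. Against this it was at 15.5 CPM in VA-free 1B, 2.47 in 2A, and 15.1 and 17.2 in 3A and 3B. VA-free 2A stood apart from the other VA-free libraries, which lay close to each other. The log2 fold change of Fmod was -5.06 (standard error 0.73), from 388 ± 139 CPM (SD, n = 2) to 11.6 ± 7.89 (SD, n = 3).

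Kera, like Fmod, was lowest in VA-free 2A. It was at 99.8 and 95.6 CPM in control 1A and 1B and at 77.1 and 56.3 CPM in control 2A and 2B. It was at 3.00 CPM in VA-free 1B, 0.947 in 3A and 1.35 in 3B, and VA-free 2A held no count, which allows a level of up to 0.0537 CPM (3 counts, counting error only). The groups did not overlap, and the log2 fold change was -5.81 (standard error 1.01), the least precise of the set. The mean went from 82.5 ± 26.4 CPM (SD, n = 2) to 1.41 ± 1.55 (SD, n = 3).

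The thrombospondins of tendon, pentameric calcium-binding matrix proteins, also fell, Thbs4 further than Comp. Thbs4 was at 404 and 365 CPM in control 1A and 1B and at 169 and 394 CPM in control 2A and 2B, against 13.2 CPM in VA-free 1B, 7.02 in 2A, and 14.7 and 14.4 in 3A and 3B. Control 2A was the lowest control library and VA-free 2A the lowest VA-free library, and the diets did not overlap. Its log2 fold change was -4.84 (standard error 0.34), from 339 ± 85.4 CPM (SD, n = 2) to 11.8 ± 4.15 (SD, n = 3). Comp was at 34.0 and 47.9 CPM in control 1A and 1B and at 14.4 and 26.7 CPM in control 2A and 2B, and at 4.25 CPM in VA-free 1B, 1.81 in 2A, and 4.10 and 3.80 in 3A and 3B. The same pair of 2A libraries was lowest, again without overlap between the diets, and the log2 fold change was -3.19 (standard error 0.44).

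Cilp2 was lower on the VA-free diet by mouse but not by library. Control 1A held 15.1 CPM, 1B 31.3, 2A 1.06 and 2B 32.5, while the VA-free libraries held 5.48 in 1B, 5.62 in 2A, 5.42 in 3A and 7.29 in 3B. Control 2A, with 51 counts, lay below all 4 VA-free libraries, and its own technical partner 2B, with 1753 counts, was the highest of all. The log2 fold change was -1.78 (standard error 0.20), from 20.3 ± 4.49 CPM (SD, n = 2) to 5.91 ± 0.494 (SD, n = 3). It was -2.25 without control 2A and -1.07 without control 2B.

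The transcription factors moved least. Scx was at 38.6 and 42.3 CPM in control 1A and 1B and at 17.6 and 32.2 CPM in control 2A and 2B, and at 14.5 CPM in VA-free 1B, 12.7 in 2A, and 15.0 and 16.0 in 3A and 3B. The diets did not overlap, but control 2A lay close above the highest VA-free library. The log2 fold change was -1.20 (standard error 0.24), from 33.1 ± 12.2 CPM (SD, n = 2) to 14.4 ± 1.55 (SD, n = 3), and it was -0.76 without control mouse 1 and -1.06 without control 2B.

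Mkx showed no separation of the diets. It was at 17.6 and 11.9 CPM in control 1A and 1B and at 22.4 and 13.7 CPM in control 2A and 2B, and at 12.7 CPM in VA-free 1B, 15.9 in 2A, and 12.0 and 13.7 in 3A and 3B. Both libraries and mice overlapped, and libraries from the same control animal lay further apart than the diet means. The log2 fold change was -0.22 (standard error 0.17), and its sign turned on the TPM scale (0.27 with a pseudocount of 1) and after the trend with GC content was removed (0.08). These shifts stand beside a median over all genes of 0.22 on that TPM scale and 0.21 after GC removal.

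Set against the control mean, the members fell into steps. In VA-free mice 1, 2 and 3 the level left was 1.08%, 0.252% and 0.879% for Tnmd and 0.483%, 2.04% and 1.17% for Cytl1. Kera kept 3.71%, 0% and 1.42%, Fmod 4.08%, 0.637% and 4.22%, and Thbs4 4.0%, 2.08% and 4.36%. In these 5 genes no mouse reached 5%. Comp kept 14.0%, 5.83% and 12.9%, Cilp2 27.7%, 27.8% and 31.9%, Scx 44.9%, 38.4% and 47.5%, and Mkx 79.8%, 97.5% and 79.8%. VA-free mouse 2 kept least of Tnmd, Kera, Fmod, Thbs4, Comp and Scx, and most of Cytl1 and Mkx.

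**Figure D2:**
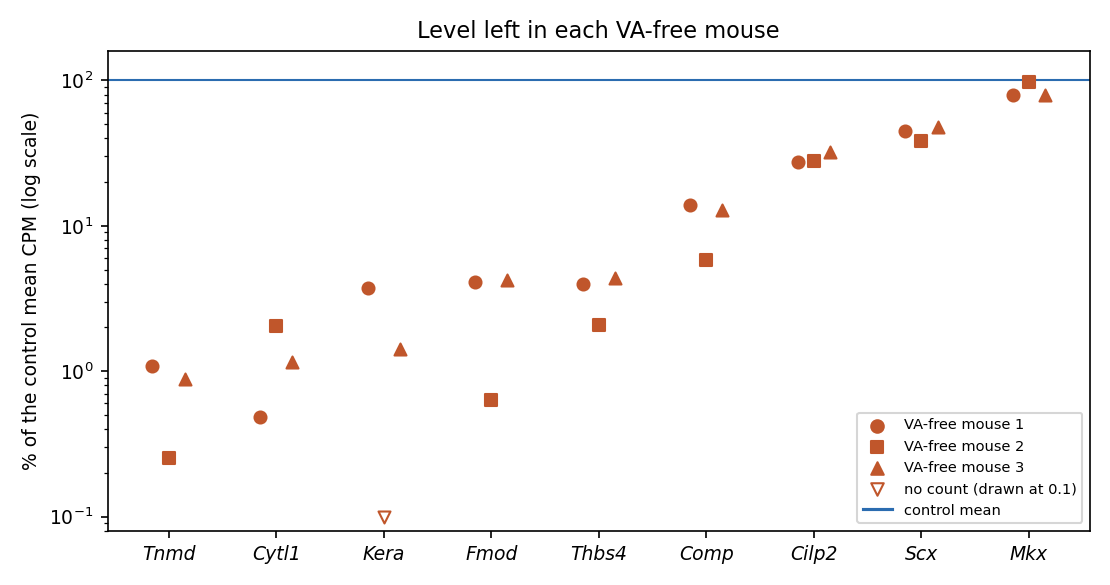
Level of each tenocyte gene in each of the 3 VA-free mice as a percentage of the control mean CPM, on a log axis, with the control mean as a line at 100%. Levels climb from 0.252% to 1.08% for Tnmd to 79.8% to 97.5% for Mkx, and the open triangle marks VA-free mouse 2, which had no Kera count.

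Genes can be ranked against each other only per transcript length, for which the deposited TPM (counts scaled by transcript length and library size) were added per gene. On the control diet Cytl1 was the most abundant member at 307 ± 66.9 TPM (SD, n = 2), above Fmod at 169 ± 54.4, Thbs4 at 145 ± 28.9 and Tnmd at 117 ± 23.8, and the mice of neighbouring genes among these last 3 overlapped. Kera at 49.4 ± 14.3 and Scx at 41.7 ± 14.0 also overlapped, as the next step, followed by Comp at 19.4 ± 7.02, Mkx at 12.2 ± 0.841 and Cilp2 at 6.57 ± 1.15 (SD, n = 2), whose mice did not overlap. On the VA-free diet the transcription factors led, Scx with 24.2 ± 2.79 TPM (SD, n = 3) and Mkx with 15.1 ± 2.77. With all transcripts of a gene added, their mice did not overlap with each other or with any other member. Fmod at 6.87 ± 4.69, Thbs4 at 6.85 ± 2.44 and Cytl1 at 5.18 ± 3.21 came next with overlapping mice, and then Comp at 2.67 ± 1.12 and Cilp2 at 2.51 ± 0.148, which also overlapped. Tnmd at 1.19 ± 0.715 and Kera at 1.17 ± 1.31 TPM, ranks 4 and 5 of the 9 on the control diet, held ranks 8 and 9 on the VA-free diet. Mkx stood higher in TPM on the VA-free diet while its CPM was lower there.

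**Figure D3:**
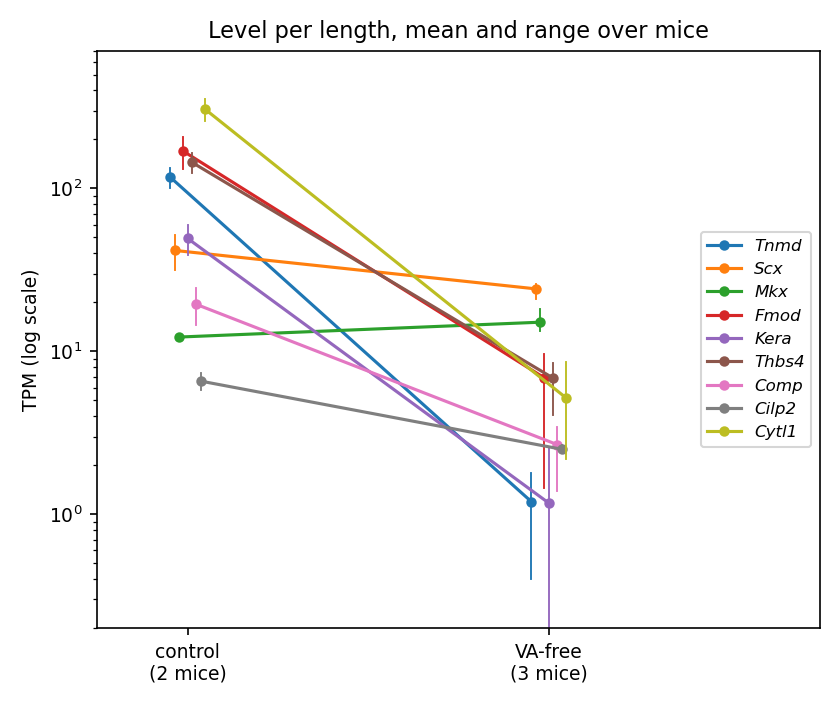
TPM (log axis) of the 9 tenocyte genes on the control diet (2 mice) and the VA-free diet (3 mice); points are means over mice, vertical lines the range over mice, and sloping lines join a gene. Scx and Mkx, ranks 6 and 8 on the control diet at 41.7 and 12.2 TPM, hold ranks 1 and 2 on the VA-free diet at 24.2 and 15.1 TPM; the line of Kera reaches 0 TPM in VA-free mouse 2 and is cut off at the lower edge.

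The TPM ranks of the transcription factors carry a limit from their transcripts. Retained-intron transcripts, which keep an intron and code for no full protein, took 20.1% to 23.5% of the Scx counts in the VA-free libraries (Scx-202) and 17.1% to 23.4% in the control libraries. For Mkx the coding transcript Mkx-201 held 78.5% to 82.9% of the counts in the VA-free libraries and 76.6% to 86.8% in the control libraries. A short retained-intron transcript, Mkx-204 of 684 bases, held 9.08% to 13.6% of the Mkx counts in the VA-free libraries and 10.7% to 12.4% in the control libraries, but from 26.4% to 42.2% of the Mkx TPM over all 8 libraries. Another one, Mkx-203 of 425 bases, ranged from 0.0008% of the Mkx TPM in VA-free 3A to 32.2% in control 2B. The coding transcripts Mkx-201 and Mkx-202 stood at 4.86 to 6.33 and 1.07 to 1.67 TPM in the VA-free libraries. Fmod lay at 1.46 to 9.69 TPM over the VA-free mice, so Mkx mice stand clear of Fmod only with retained-intron transcripts added. Tnmd, Kera and Cilp2 were each read as a single coding transcript. In Comp the short coding transcript Comp-203 reached 9.18% of the counts in control 2A and at most 2.54% in the other libraries. Scx lies within Bop1, a ribosome biogenesis gene on the opposite strand, with 0 shared exon bases, and the counting does not separate strands. Bop1 held 4460 to 10063 counts in the VA-free libraries and 2522 to 4767 in the control libraries, not scaled by depth. Mkx shares 201 exon bases with AC148004.2, a gene on its own strand that has no transcript among those counted. The Mkx counts may therefore include reads of AC148004.2.

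Technical replicates showed how far a single library can carry a member. Between control 2A and 2B the log2 ratio of CPM was -4.40 for Cilp2, -1.22 for Thbs4, -0.87 for Comp, -0.85 for Scx and -0.26 for Fmod, and it was above 0 for Tnmd (0.37), Kera (0.45), Mkx (0.69) and Cytl1 (0.86). The 3 members with the highest GC content, Cilp2 with 65.5%, Scx with 63.6% and Comp with 59.9%, were all lower in 2A, and the 3 with the lowest, Kera with 40.7%, Tnmd with 43.0% and Mkx with 43.2%, were all higher. With all genes split by GC content into 5 bins of equal size, the median log2 ratio of 2A to 2B went from 0.23 in the lowest bin to -0.53 in the highest. For VA-free 3A over 3B the members stayed between -0.40 (Cilp2) and 0.13 (Tnmd), and for control 1A over 1B between -1.02 (Cilp2) and 0.55 (Mkx). The part of GC content in the diet differences was not tested beyond removing its trend.

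**Figure D4:**
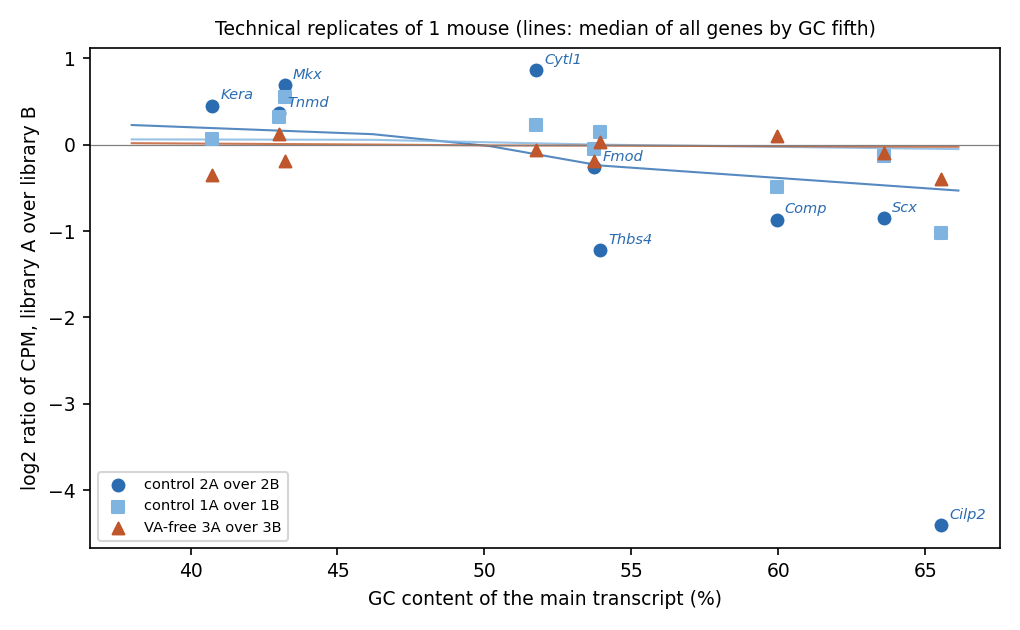
Log2 ratio of CPM between technical replicates A and B of 1 mouse (y) against the GC content of the main transcript in percent (x) for the 9 tenocyte genes; lines join the medians of all genes in 5 bins of GC content, drawn at the middle of the range of each bin. The points of control 2A over 2B run from 0.45 for Kera to -4.40 for Cilp2, whereas those of VA-free 3A over 3B stay between -0.40 and 0.13.

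How the members moved with each other was read over the 8 libraries after the mean of each diet was taken away, on log2(CPM + 1). These are descriptions over libraries of 5 mice that share depth, base composition and, in 3 cases, an animal. Tnmd, Kera and Fmod formed a close trio, with Pearson r of 0.88 for Tnmd and Kera, 0.82 for Fmod and Kera and 0.81 for Tnmd and Fmod. Each gene of the trio was lowest of its diet in VA-free 2A, where Kera held 0 counts and Tnmd 16. The part of that library in these correlations was not tested. Scx varied with Comp (0.91), Cilp2 (0.89) and Thbs4 (0.85), and less with Tnmd (0.28) and Kera (0.28). Fmod also varied with Thbs4 (0.76) and Comp (0.74), so the trio is not set apart from these genes. Mkx ran against Comp (-0.85), Cilp2 (-0.84), Scx (-0.79) and Thbs4 (-0.77). Cytl1 was nearest to Mkx (0.48) and ran against Fmod (-0.50). Scx, Comp and Cilp2 are the 3 members with the highest GC content, and the part of base composition in these correlations was not tested.

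The genes whose level followed the mean of the 9 members most closely within the diets, of 11036 ranked, were Ten1 (r = 0.986), Igfbp3 (0.982), Hspa1a (0.963), Klhl22 (0.962) and Shisal1 (0.961), each over 8 libraries. Igfbp3, a secreted carrier of insulin-like growth factors, was at 37.3 to 69.8 CPM in the VA-free libraries and 67.3 to 150 CPM in the control libraries, lowest in VA-free 2A and control 2A within each diet. Hspa1a, an inducible heat shock protein, was lowest in those 2 libraries as well, but ran from 982 to 2038 CPM in the VA-free and from 365 to 1051 CPM in the control libraries. Ten1, Klhl22 and Shisal1 were also lowest there, at 13.1, 47.8 and 7.20 CPM in VA-free 2A and 18.6, 22.8 and 2.23 CPM in control 2A. All 5 genes were thus lowest in the same 2 libraries. The part of these libraries and of base composition in the ranking was not tested. None of the 5 belongs to the tendon lists.

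Other genes of tendon were read from a list of 59, of which 58 were tested, Gdf5 being at 0 in every library. Of these, 16 genes were lower, 18 higher and 24 not called, and the median log2 fold change was 0.02. All genes tested had 22.5% lower and 18.9% higher. Without control 2B, 11 were lower and 10 higher, and calls over all genes dropped as well, to 2863 lower and 1613 higher of 17769 tested. The counts by role that follow rest on few genes each and stand beside the main shares of 22.5% lower and 18.9% higher. Some of them lie near these shares, and whether the roles differ was not tested.

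Of the 9 regulators of tendon fate tested, 7 were higher, 0 lower and 2 not called. Egr1, an immediate early factor that acts on tendon collagen genes, went from 4778 ± 1338 CPM (SD, n = 2) to 7667 ± 748 (SD, n = 3), with a log2 fold change of 0.68 (edgeR adjusted p = 0.0313), a call lost in 6 of 20 alternatives. Tgfb3, a growth factor that induces Scx in tendon progenitors, was higher by 0.93 on the log2 scale (edgeR adjusted p = 0.00388), whereas Egr2 had a log2 fold change of 0.34 and was not called (edgeR adjusted p = 0.0593). Egr2 was called higher in 5 of 20 alternatives, among them DESeq2 (DESeq2 adjusted p = 0.0391) and the TPM scale (0.77 with a pseudocount of 1, limma adjusted p = 0.00112). Without control 2B neither Egr1 (edgeR adjusted p = 0.137) nor Tgfb3 (edgeR adjusted p = 0.0687) was called.

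The relatives of Scx and Tnmd had lower mean levels on the VA-free diet, 1 of them called. Tcf15 (paraxis), a basic helix-loop-helix factor closely related to Scx, was at 3.61 CPM (1B), 5.46 (2A), 3.57 (3A) and 4.05 (3B) in the VA-free libraries, and at 94.8 CPM (1A), 74.6 (1B), 96.1 (2A) and 48.1 (2B) in the controls. The diets did not overlap, and the log2 fold change was -4.18 (standard error 0.22, edgeR adjusted p = 0.000211). Cnmd (chondromodulin), the relative of Tnmd found in cartilage, was at 0.902 ± 0.257 CPM (SD, n = 2) under control and 0.0896 ± 0.140 (SD, n = 3) under VA-free feeding. Its log2 fold change, -3.26, did not pass the threshold (edgeR adjusted p = 0.0866). It was called lower in 5 of 20 alternatives, among them DESeq2 (DESeq2 adjusted p = 0.0496) and the fit without VA-free mouse 1 (-6.73, edgeR adjusted p = 0.0104), and its value ran from -6.73 to -0.89 over the 20.

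Among 13 other small leucine-rich proteoglycans and their kin, 7 were lower, 1 higher and 5 not called. On chromosome 10 of GRCm38, Kera (97606879 to 97613692) lies beside Lum (97565128 to 97572703), Dcn (97479609 to 97518143) and Epyc (97644068 to 97682454). Dcn, the most abundant of them, was at 53.0 CPM (1B), 50.7 (2A), 88.0 (3A) and 88.6 (3B) in the VA-free libraries, and at 1476 CPM (1A), 1342 (1B), 1790 (2A) and 1132 (2B) in the controls. Its log2 fold change was -4.46 (standard error 0.27, edgeR adjusted p = 0.000226), that of Lum was -3.54 (standard error 0.35, edgeR adjusted p = 0.000512), and Epyc was barely read, at 0.0890 ± 0.0484 CPM (SD, n = 2) under control and 0.0739 ± 0.0677 (SD, n = 3) under VA-free feeding. VA-free 2A, without a Kera count, was not set apart in Dcn or Lum, where VA-free 1B was at the same level.

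Fmod lies on chromosome 1 (134037254 to 134048277) near Prelp (133910304 to 133921414), which codes for a proteoglycan that anchors basement membrane to collagen. Prelp was at 1974 CPM (1B), 2254 (2A), 2278 (3A) and 2429 (3B) in the VA-free libraries, and at 731.8 CPM (1A), 744 (1B), 575 (2A) and 839 (2B) in the controls, where every VA-free library was above every control library. Its log2 fold change was 1.61 (standard error 0.14, edgeR adjusted p = 0.000385), the only gene of its role called higher, beside -5.06 for Fmod. Optc had a log2 fold change of 0.70 and was not called (edgeR adjusted p = 0.234). Aspn fell by 5.16 on the log2 scale (edgeR adjusted p = 0.000336), while its kin Bgn (log2 fold change -0.18, edgeR adjusted p = 0.243) and Ogn (-0.34, edgeR adjusted p = 0.175) were not called and turned sign on the TPM scale (0.24 and 0.08), Bgn also without control 2B (0.04).

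The other thrombospondins did not follow Thbs4 and Comp. Thbs2, a trimeric thrombospondin of connective tissue, was at 1507 CPM (1B), 1423 (2A), 1531 (3A) and 1638 (3B) in the VA-free libraries, and at 576 CPM (1A), 535 (1B), 507 (2A) and 695 (2B) in the controls. It was higher without overlap, by 1.39 on the log2 scale (standard error 0.12, edgeR adjusted p = 0.000404). Thbs1 was higher by 0.96 (edgeR adjusted p = 0.00747), a call lost without control 2B (edgeR adjusted p = 0.107), and Thbs3, a pentameric relative of Thbs4 and Comp, had a log2 fold change of 0.10 (edgeR adjusted p = 0.699) that turned sign without control 2A (-0.01) and without control mouse 2 (-0.13). On the TPM scale Thbs3 was called higher (0.69 with a pseudocount of 1, limma adjusted p = 0.00812). Cilp, the relative of Cilp2, was at 11.3 to 20.6 CPM in the VA-free libraries and 57.6 to 155 CPM in the control libraries, and fell by 3.00 on the log2 scale (edgeR adjusted p = 0.000355). Tnc, the tenascin of tendon, had a log2 fold change of -0.51 and was not called (edgeR adjusted p = 0.332). It was -0.21 without VA-free mouse 2 and -0.92 without VA-free mouse 3, and with the replicate block it was called lower (-0.97, edgeR adjusted p = 0.0115).

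Of the 9 collagens of tendon fibrils, 2 were lower, 4 higher and 3 not called. Added over the 9 collagens, the level was 1593 CPM in control 2A but 8827 in 2B of the same mouse. It was 5649 and 7813 CPM in control 1A and 1B and 12591 to 13546 CPM in the VA-free libraries. Col3a1 went from 4304 ± 777 CPM (SD, n = 2) to 11222 ± 558 (SD, n = 3), with a log2 fold change of 1.38 (edgeR adjusted p = 0.000853). The SD is over mice and does not show the gap between 2A and 2B. The fold change ran from 0.99 to 1.92 over the 20 alternatives and was not called without control 2B (edgeR adjusted p = 0.0833). Col5a2, a minor fibril collagen, was higher by 1.30 (edgeR adjusted p = 0.000451). Col1a1, the main chain of tendon collagen, had a log2 fold change of -0.28 (edgeR adjusted p = 0.443), whose sign turned on the TPM scale (0.23), without control 2B (0.25) and without control mouse 1 (0.16), whereas without control 2A it was called lower (-0.67, edgeR adjusted p = 0.022). Named after its values were seen, Col1a2, the partner chain of Col1a1, was lower by mouse without overlap, at 160 ± 19.7 CPM (SD, n = 3) against 488 ± 76.3 (SD, n = 2), with a log2 fold change of -1.61 (edgeR adjusted p = 0.00048).

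Enzymes and chaperones of collagen processing were mostly not called, with 1 lower, 3 higher and 9 not called of 13. Bmp1, the proteinase that trims procollagen, was higher by 1.63 on the log2 scale (edgeR adjusted p = 0.000529). Serpinh1, the collagen chaperone, had a log2 fold change of 0.05 (edgeR adjusted p = 0.879), and Loxl1, a crosslinking oxidase, one of 0.48 (edgeR adjusted p = 0.079), neither of them called. Serpinh1 turned sign in 5 of 20 alternatives, and Loxl1 was called higher in 5 of 20, with 0.22 to 0.90 as its range.

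Of the 7 genes of the fibril surface and boundary layer, 4 were lower, 1 higher and 2 not called. Postn, a secreted matrix protein of tendon and periosteum, was at 4.80 to 13.0 CPM in the VA-free libraries and 112 to 179 CPM in the control libraries, and fell by 3.91 on the log2 scale (edgeR adjusted p = 0.000484). Fbn1, the microfibril protein, was higher by 1.57 (edgeR adjusted p = 0.00071), and Dpt, with a log2 fold change of 0.29, was not called (edgeR adjusted p = 0.11) but was called higher in 4 of 20 alternatives, including the TPM scale (0.73 with a pseudocount of 1, limma adjusted p = 0.0032).

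Chad, Angptl7 and Prg4 were singled out after their values were seen, because they too were lowest in VA-free 2A. Chad, a leucine-rich matrix protein of cartilage and tendon, held 2 counts in VA-free 2A and 64 to 108 in the other VA-free libraries, against 1400 to 3222 in the control libraries, a log2 fold change of -5.42 (edgeR adjusted p = 0.00324). Angptl7, a secreted angiopoietin-like protein, held 31 counts in VA-free 2A and 157 to 182 in the others, against 2492 to 7769, a log2 fold change of -5.41 (edgeR adjusted p = 0.000768). Prg4 (lubricin), which coats tendon surfaces, was at 0.680 CPM in VA-free 2A and 1.13 to 1.58 CPM in the others, against 29.0 to 45.4 CPM, a log2 fold change of -4.92 (edgeR adjusted p = 0.000269). Tnmd, Kera and Fmod were lowest in the same library.

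**Figure D5:**
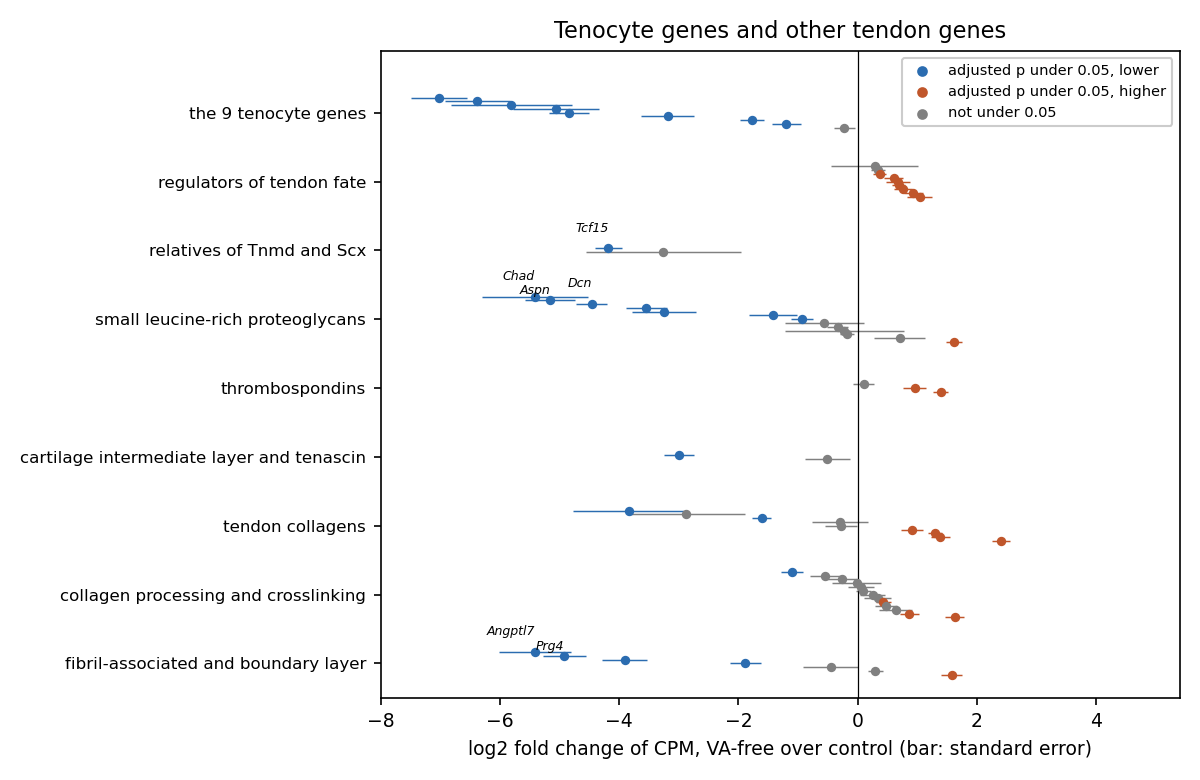
Log2 fold change of CPM (VA-free over control, edgeR over 5 mice, bars standard errors) of the 9 tenocyte genes and of 58 other tendon genes by role; blue marks lower and orange higher at an adjusted p under 0.05, grey neither. The tenocyte genes run from -7.02 to -0.22, whereas the other tendon genes spread over both sides of 0 with 16 lower and 18 higher.

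Markers of several other cell types moved in the direction of the tenocyte genes, and their part in the result was not tested. Over all genes tested 22.5% were lower and 18.9% higher. All 8 markers of fibro-adipogenic progenitors were lower, their summed level being 31.9 to 58.0 CPM in the VA-free libraries and 657 to 867 CPM in the control libraries. All 8 endothelial markers were lower as well (247 to 314 against 1460 to 3993 CPM), as were 7 of 8 Schwann cell markers (43.0 to 55.2 against 307 to 632 CPM). Of pericyte and smooth muscle markers 4 of 8 were lower and 1 higher (1551 to 1828 against 2520 to 3017 CPM). This sum hides opposite changes. From control to VA-free, mean Rgs5 fell from 1232 to 17.9 CPM and Notch3 rose from 125 to 861 CPM. Acta2, at 990 and 771 CPM, was not called. Of macrophage markers 4 of 8 were lower (26.2 to 128 against 175 to 863 CPM). Their Csf1r and Mrc1 had positive fold changes, not called. Myofiber markers overlapped in summed level (321 to 414 against 408 to 506 CPM). Of these 3 of 8 were lower, and Myh1, Myh4 and Atp2a1 had positive fold changes, not called. MuSC markers went the other way, with 7 of 8 higher, 0 lower and a summed level of 4966 to 5774 CPM in the VA-free and 2190 to 3442 CPM in the control libraries.

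The tendon genes were also set beside cartilage, which shares Comp, Cilp2 and Cytl1 with tendon. Of 8 cartilage markers, Matn1 and Snorc held no count in any library, Acan was at 0.0533 ± 0.0922 CPM (SD, n = 3) on the VA-free and 0.00948 ± 0.0134 (SD, n = 2) on the control diet, and 4 of the 5 tested were lower. The summed level was 0.507 to 0.779 CPM in the VA-free and 2.58 to 7.08 CPM in the control libraries. Col2a1 (2.40 and 1.17 CPM) and Col9a2 (2.35 and 2.28 CPM) were the highest in the control mice and fell by 4.06 and by 3.45 on the log2 scale (edgeR adjusted p = 0.012 and 0.00476). The part of cartilage RNA in the result was not tested. The tenocyte label cannot be checked with the members, which were chosen. Tnmd, Scx, Fmod and Thbs4 were read in every library of both diets, which is no check of the label. Tnmd held only 16 counts in VA-free 2A. On the VA-free diet Scx was read at 12.7 CPM or more and Mkx at 12.0 CPM or more in every library, beside Tnmd at 1.21 CPM or less.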

How the data were processed

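RNA of GFP-positive MuSCs was copied with SMART-Seq v4 and made into Nextera XT libraries, which keep no strand, and read as single ends. The authors quantified Ensembl 96 transcripts of GRCm38 with kallisto 0.46.2 (version from the submitters' processing notes) and deposited, per transcript and library, estimated counts without normalization, TPM scaled to a fixed total by effective transcript length, and that effective length itself, used here only as an offset. The authors' own comparison used DESeq2.

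Estimated counts were added per gene through GENCODE M21, the same annotation, added over the libraries of a mouse and rounded. Counts without a gene, 0.647% to 0.756% per library, were left out. At these depths counting error is small above about 100 counts. The labels number the biological replicates, and the mice were taken as the unit. For the comparison over 5 mice, edgeR 4.0.16 was run under R 4.3.3 (TMM, filterByExpr, quasi-likelihood test, Benjamini-Hochberg adjustment over 17997 genes, threshold 0.05); the standard error is the log2 fold change divided by the square root of F. Levels are TMM-normalized CPM. Numbers shared between the diets were not used to pair the mice in the main fit.

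The members and lists were chosen with earlier results of these data known. The text names all 9 members, the relatives of members, and the 3 genes of each role with the highest mean CPM. It also names the 5 genes most alike within the diets among those with a mean of at least 5 CPM. Alternatives were RLE size factors, no count filter, DESeq2 1.42.0, limma 3.58.1 on log2(TPM + 1) and log2(TPM + 0.1), an effective length offset, separate libraries, a replicate block, and fits that drop 1 mouse or 1 library. Removal of a GC trend was chosen after seeing the data. Interval and floor statements cover counting error only.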

Additional observations from a re-analysis of the deposited data

Results flagged for a closer look

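Of 18 sets of 4 libraries examined (9 genes in each diet), 3 held a library far from the rest of its diet by Dixon's test at 95%. Chance flags about 1 in 20 such sets, and libraries of 1 mouse share an animal. Fmod was at 2.47 CPM in VA-free 2A, while the other VA-free libraries lay between 15.1 and 17.2 CPM. Thbs4 was at 169 CPM in control 2A, below the other control libraries at 365 to 404 CPM. Cilp2 was at 7.29 CPM in VA-free 3B, above the other VA-free libraries at 5.42 to 5.62 CPM. Cilp2 in control 2A, at 1.06 CPM, and Kera in VA-free 2A, at 0 counts, were not set apart by this test.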

How the results depend on the processing

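Counts of tenocyte genes are no support for their direction, since the same contrast chose them. Over 20 alternatives, 8 tenocyte genes were called lower in all but the fit with 8 separate libraries (7, Cilp2 lost) and the fit without control 2B (6, Scx and Cilp2 lost); leaving out 1 mouse or library gave 6 to 8. With the replicate block, 8 tenocyte genes, 18 other tendon genes lower and 14 higher were called, and 5242 instead of 7459 genes in all. Deviations from the diet means correlated at -0.11 for VA-free 1 with control 1 and at -0.03 for VA-free 2 with control 2. With 2 control mice their deviations mirror each other, so these values cannot decide whether shared numbers pair the mice. Of other tendon genes, 11 to 19 were called lower and 10 to 20 higher when 1 mouse or library was left out, the lowest of both without control 2B, where 4476 genes were called in all. The cause was not tested. With TPM 26 other tendon genes were higher, and the share of higher among all calls was 68.7% (pseudocount 1) or 69.2% (pseudocount 0.1), and 59.1% after GC removal, against 45.6%. The median of all genes shifted to 0.22, 0.37 and 0.21 there.

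Signs turned only where the main value was not called. On the TPM scale with a pseudocount of 1 or 0.1, Mkx went to 0.27 and 0.29, Bgn to 0.24 and 0.24, Ogn to 0.084 and 0.084, and Col1a1 to 0.23 and 0.23. After GC removal Mkx went to 0.079 and Bgn to 0.043, and Serpinh1 was at -0.0083 under the replicate block. Leaving out 1 mouse or library gave -0.41 to 0.043 for Bgn (highest without control 2B), -0.67 to 0.25 for Col1a1 (highest without control 2B), -0.26 to 0.43 for Serpinh1 (lowest without control mouse 1) and -0.13 to 0.36 for Thbs3 (lowest without control mouse 2). Levels under about 20 counts, as Tnmd in VA-free 2A, are imprecise, and 2 control mice leave the spread of that diet poorly known.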
